A study of Homo sapiens with 6 samples.

Results

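This account covers genes that repair DNA double-strand breaks, interstrand crosslinks and replication mismatches, with the checkpoint genes that signal such damage. Members were chosen by gene symbol from a list of 43 genes, matched to the platform's probe table. The rule itself uses no measured value, but the list was chosen with earlier results of these data known. Of the 43, 36 had a probe set with a single gene symbol and were measured, out of 22395 genes measured in all. For BRCA2, XRCC2, RBBP8, FANCA and FANCD2 no probe set was named in the table used, and ATM and RAD51D were named only on probe sets shared with other genes, so these 7 were not analysed here.

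Total RNA came from A549, an established human lung adenocarcinoma line of alveolar epithelial type. Its 6 samples fall into 3 groups of 2 arrays: vehicle only, 2 µM Comp.2 and 2 µM Comp.4, all taken on day 2 of a treatment begun 24 h after plating. The series title describes the compounds as histone acetyltransferase inhibitors that act at chosen DNA sequences, and the stated aim was to see how each changed expression. All groups are one cell line in one medium, and the labels do not say that the 2 arrays of a group came from separate cultures, so p-values reflect a spread between arrays that may be technical only. Because the RNA is from bulk culture, a change in the mix of cells and a change in RNA per cell cannot be told apart.

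A double-strand break can be rejoined end to end, by the KU70 and KU80 proteins (XRCC6 and XRCC5), the kinase DNA-PKcs (PRKDC) and ligase IV, or copied from the sister chromatid by homologous recombination, for which BRCA1 and PALB2 prepare the resected strand. The Fanconi proteins unhook crosslinks between DNA strands, the MSH and PMS proteins remove mispaired bases after replication, and ATR and CHEK1 hold the cell cycle while repair proceeds. Many of these genes are transcribed most in cells that replicate their DNA.

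Of 12 epithelial and A549 markers all were measured, with vehicle levels of 6.31 to 12.40 (log2), among them CDH1 at 10.30 ± 0.02 (SD, n = 2) and AKR1B10 at 11.80 ± 0.05. The medians of 6 fibroblast, 6 endothelial and 9 leukocyte markers were 4.18, 4.16 and 3.93 in vehicle arrays, and PTPRC was the lowest leukocyte marker at 2.70. CD68, a lysosomal gene also used as a macrophage marker, was the highest of the 3 lists at 8.60. The leukocyte marker CD14 at 6.03 and the fibroblast marker COL1A1 at 5.45 also lay above the median gene (5.35 and 5.34 in the vehicle arrays). CD68 was the 1 marker of the 3 lists to pass the test in any comparison, under Comp.2. The 6 arrays had nearly equal medians over all probe sets, 4.55 to 4.56. Log2 differences are described beside those of all genes, whose median was 0.004 under Comp.2 and 0.018 under Comp.4.

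In vehicle arrays the 36 genes lay between 4.50 (RAD51B) and 11.23 (XRCC5) on the log2 scale, and 34 of them were brighter than the median gene. The median SD within a group of 2 arrays was 0.04, and the largest was 0.26, for FANCE under Comp.2. Under Comp.2, 34 of 36 (94.4%) differed from vehicle by less than 0.25 in log2, against 90.6% of all genes, and under Comp.4, 31 of 36 (86.1%), against 86.6%. A gene was called when its limma p-value, adjusted by the Benjamini-Hochberg method over all 22395 genes, was under 0.05.

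**Figure D1:**
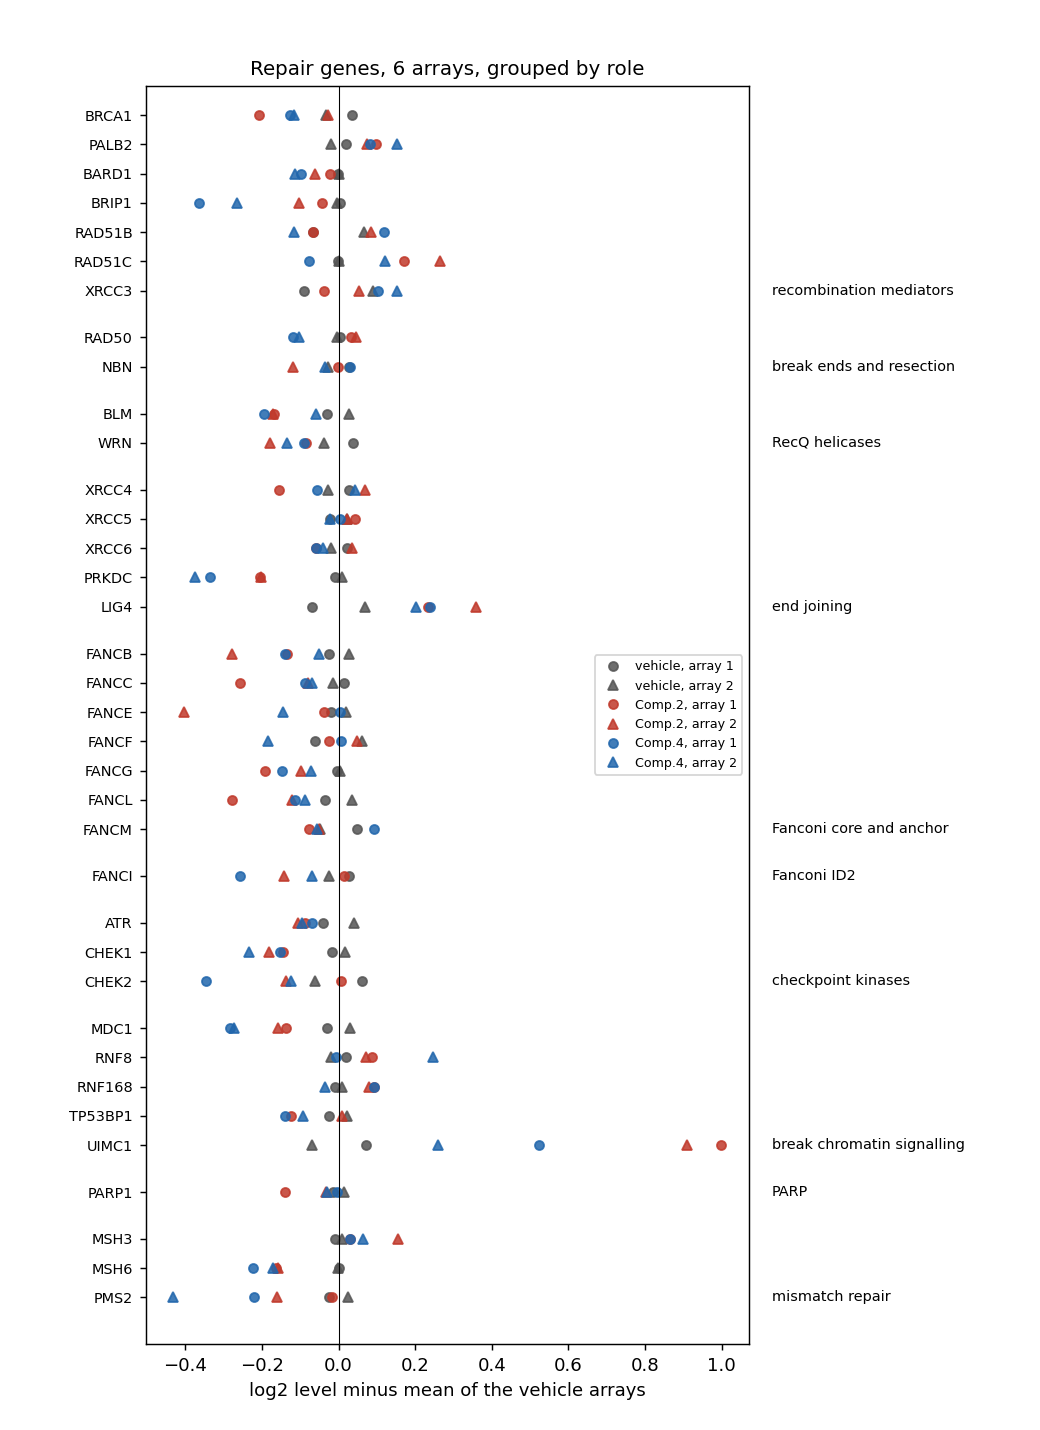
Log2 level of each of the 36 repair genes in each of the 6 arrays, minus the mean of the vehicle arrays, with genes grouped by role (names at right, beside the last gene of each group). Circles are array 1 and triangles array 2 of a group; most points lie within 0.25 of vehicle, PRKDC and BRIP1 lie to the left under Comp.4, and UIMC1, on its brightest probe set, lies far to the right under Comp.2.

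The first comparison asked which of these genes Comp.2 altered against vehicle. One gene, UIMC1, was called higher and none lower, against 0.134% of all genes called higher and 0.0625% called lower. UIMC1 encodes RAP80, which binds ubiquitin chains at breaks and brings in the BRCA1-A complex. On its brightest probe set the log2 level was 7.81 and 7.67 in the vehicle arrays, 8.74 and 8.65 under Comp.2, and 8.27 and 8.002 under Comp.4. Both Comp.2 arrays lay above both Comp.4 arrays, which lay above both vehicle arrays. The difference of Comp.2 from vehicle was 0.95 (SE 0.11, 95% interval 0.70 to 1.21, adjusted p = 0.0407), a 1.94-fold rise.

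That call holds for 1 of the 2 UIMC1 probe sets. The other had 7.47 and 7.36 in vehicle, 7.29 and 7.19 under Comp.2, and 7.37 and 7.28 under Comp.4. Here both Comp.2 arrays lay below both vehicle arrays, and the difference was -0.18 (SE 0.08, 95% interval -0.37 to 0.02, adjusted p = 0.488 with every single-symbol probe set tested). The direction of UIMC1 is therefore unsettled. Probe set numbers on this platform follow the genome: of 22546 single-symbol probe sets, 99.9% had a gene of their own chromosome among the 10 numbered just before and the 10 just after. The brightest UIMC1 probe set was among the 32 that had none. Its 20 neighbours were 8 mitochondrial genes, 9 genes of chromosome X and 3 of chromosome 9, whereas all 20 neighbours of the other probe set were genes of chromosome 5, where RefSeq places UIMC1. Which transcript the brightest probe set detects was not tested. Leaving out any 1 of the 6 arrays ended the call, with an adjusted p of 0.0508 to 0.304. Averaging the 2 probe sets gave 0.39, which did not pass (adjusted p = 0.237).

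**Figure D2:**
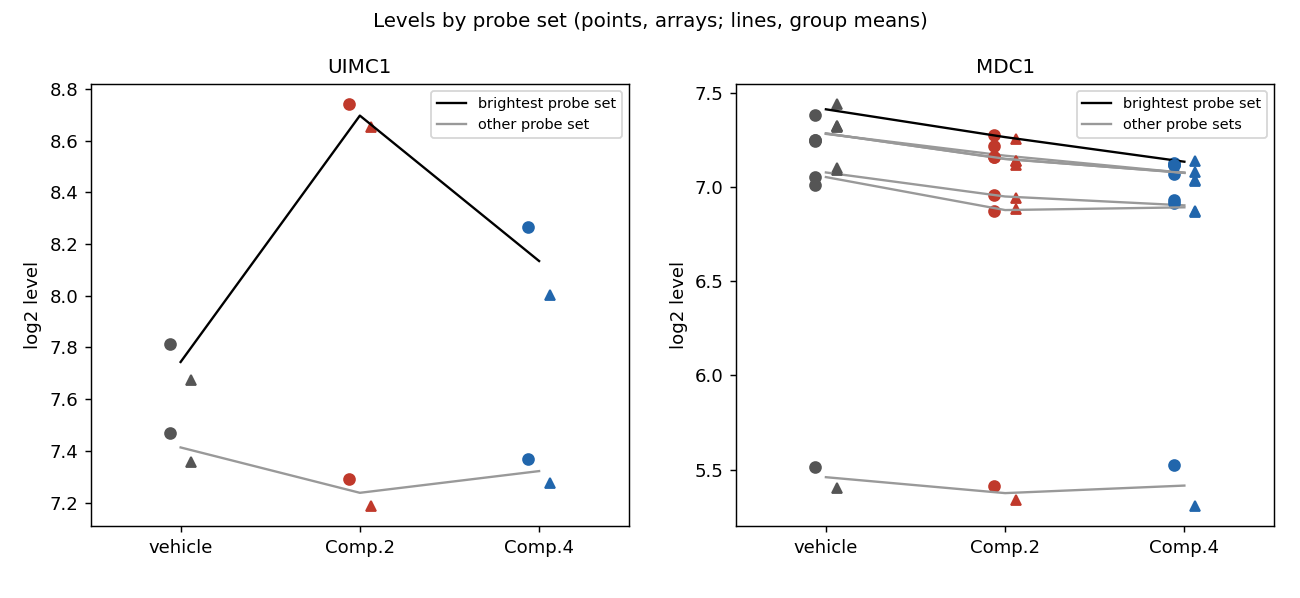
Log2 levels of UIMC1 (left) and MDC1 (right) in each array (circles, array 1; triangles, array 2) for every distinct probe set, with lines through the group means. For UIMC1 the brightest probe set runs from 7.74 in vehicle to 8.70 under Comp.2 while the other goes from 7.41 to 7.24; for MDC1 every probe set has a lower mean in both treated groups than in vehicle.

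Without UIMC1, 35 genes remain, and limma called none of them under Comp.2. With an unadjusted p under 0.05, 2 were higher (5.71%) and 3 lower (8.57%). All genes had 6.23% and 4.94%, and genes brighter than the median 7.16% and 6.53%. LIG4, the ligase that seals ends in nonhomologous joining, had the largest positive difference. Its levels were 6.18 and 6.31 in vehicle against 6.48 and 6.60 under Comp.2, a difference of 0.30 (SE 0.08, adjusted p = 0.306). The arrays did not overlap, where 22.7% of all genes and 23.5% of the brighter ones were apart and higher. RAD51C, a recombination gene, had 7.24 in both vehicle arrays and 7.41 and 7.50 under Comp.2, a difference of 0.22 (SE 0.09, adjusted p = 0.442), and 7.16 and 7.36 under Comp.4. Neither passed.

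Genes of the Fanconi core complex, which attaches ubiquitin to FANCD2 and FANCI at a stalled fork, lay mostly below vehicle under Comp.2. With the anchor gene FANCM, 6 of the 7 measured were below and without overlap between arrays, where 21.0% of all genes and 27.1% of the brighter ones were apart and lower. FANCF, at 0.01, was the other. FANCL, the ubiquitin ligase of the complex, had 8.11 and 8.18 in vehicle and 7.87 and 8.02 under Comp.2 (difference -0.20, SE 0.08). FANCB had 6.58 and 6.63 against 6.47 and 6.33 (-0.21, SE 0.08). FANCE had 5.27 and 5.31 against 5.25 and 4.89 (-0.22, SE 0.13), so its difference rests mainly on 1 array. The adjusted p-values of these 3 genes were 0.428 to 0.57, and none of the 7 passed.

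Among the kinases, CHEK1, the effector of ATR, had 7.59 and 7.63 in vehicle and 7.47 and 7.43 under Comp.2 (difference -0.16, SE 0.07, adjusted p = 0.466). ATR itself had 7.34 and 7.42 against 7.29 and 7.27 (-0.10, SE 0.07). For both genes the arrays of the groups did not overlap, where 21.0% of all genes and 27.1% of the brighter ones were apart and lower. PRKDC, the kinase subunit of DNA-PK, had 10.16 and 10.17 in vehicle and 9.96 in each Comp.2 array (-0.20, SE 0.07, adjusted p = 0.363). BRCA1 overlapped, with 7.66 and 7.59 in vehicle and 7.42 and 7.60 under Comp.2. PARP1, which senses strand breaks, had 8.92 and 8.95 against 8.79 and 8.90 (-0.09, SE 0.07).

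Over all 36 genes the median log2 difference under Comp.2 was -0.06, and 24 lay below 0 (66.7%). Of all genes 48.7% lay below 0, and of the brighter ones 52.8%, with a median of -0.009. Arrays of the groups were apart and lower for 16 genes (44.4%), against 21.0% of all genes and 27.1% of the genes brighter than the median. They were apart and higher for 8 (22.2%), against 22.7%. The median over the members was -0.05 and -0.06 in the 2 Comp.2 arrays, taken from the vehicle mean, against -0.005 and 0.005 in the vehicle arrays.

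The second comparison asked the same of Comp.4. No repair gene was called in either direction, against 0.0536% of all genes called higher and 0.0938% lower. With an unadjusted p under 0.05, limma had 2 genes higher and 6 lower, which is 5.56% and 16.7% of the members, against 8.64% and 7.88% of all genes and 9.63% and 12.2% of the brighter ones. The 6 were PRKDC, PMS2, BRIP1, MDC1, MSH6 and CHEK1.

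PRKDC had the lowest difference. Its levels were 10.16 and 10.17 in vehicle, 9.96 and 9.96 under Comp.2, and 9.83 and 9.79 under Comp.4. Replicates lay within 0.04 of each other and the 3 groups did not overlap. The Comp.4 difference was -0.36 (SE 0.07, 95% interval -0.52 to -0.19, adjusted p = 0.0994), 1.28-fold lower. BRIP1, the helicase partner of BRCA1 also known as FANCJ, had 8.24 in both vehicle arrays, 8.20 and 8.14 under Comp.2, and 7.88 and 7.98 under Comp.4. Both Comp.4 arrays lay below the other 4, with a difference from vehicle of -0.31 (SE 0.07, adjusted p = 0.133), 1.24-fold lower.

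Of the mismatch repair genes, PMS2, which helps cut the mismatched strand, had 8.31 and 8.36 in vehicle, 8.32 and 8.17 under Comp.2, and 8.11 and 7.90 under Comp.4. Its Comp.4 difference was -0.33 (SE 0.10, adjusted p = 0.188). PMS2 has pseudogene copies of near-identical sequence, so its value as a single gene is uncertain. MSH6, which recognises base mispairs, had 8.84 in both vehicle arrays, 8.68 and 8.69 under Comp.2, and 8.62 and 8.67 under Comp.4 (Comp.4 difference -0.20, SE 0.07, adjusted p = 0.232). MSH3, which recognises longer loops, had 8.36 and 8.38 against 8.40 and 8.44 (0.05, SE 0.08). Thus 2 of the 3 measured lay below vehicle and 1 above.

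MDC1, the scaffold that binds phosphorylated H2AX beside a break, had 7.38 and 7.44 in vehicle, 7.28 and 7.25 under Comp.2, and 7.13 and 7.14 under Comp.4 on its brightest probe set. The 3 groups did not overlap, and the Comp.4 difference was -0.28 (SE 0.07, adjusted p = 0.142). MDC1 has 13 single-symbol probe sets, which hold only 7 distinct rows of values. The 12 others had Comp.4 differences of -0.21 to -0.045, all below 0, and Comp.2 differences of -0.18 to -0.085. Among the other genes of break chromatin, TP53BP1, which favours end joining, had -0.12 (SE 0.08). The ubiquitin ligase genes RNF8 and RNF168 had 0.12 (SE 0.10) and 0.03 (SE 0.08).

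**Figure D3:**
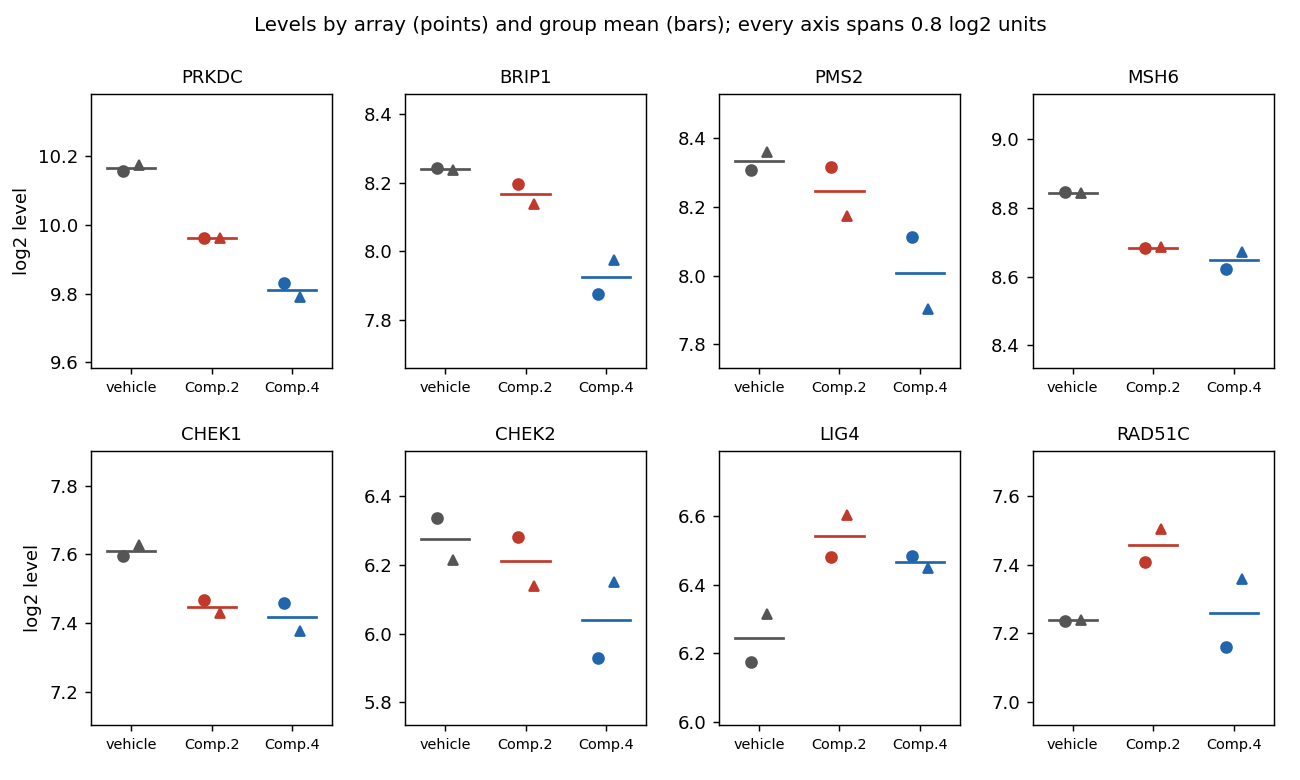
Log2 levels of 8 repair genes in the 6 arrays (circles, array 1; triangles, array 2) with group means as bars; every vertical axis spans 0.8 log2 units and none starts at 0. PRKDC goes from 10.17 in vehicle to 9.96 under Comp.2 and 9.81 under Comp.4, while LIG4 and RAD51C are highest under Comp.2.

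Checkpoint kinases lay below vehicle under Comp.4. CHEK1 had 7.46 and 7.38 (difference -0.19, SE 0.07, adjusted p = 0.257), and CHEK2, the effector of ATM, had 5.93 and 6.15 against 6.34 and 6.21 in vehicle (-0.24, SE 0.10, adjusted p = 0.321). ATR had 7.31 and 7.28 (-0.08, SE 0.07). The arrays were apart in all 3, where 22.2% of all genes and 31.1% of the brighter ones were apart and lower, and none passed.

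The recombination genes did not share a direction. BRCA1 had 7.50 and 7.51 under Comp.4, below both vehicle arrays (-0.12, SE 0.08, adjusted p = 0.521), and its partner BARD1 had -0.11 (SE 0.07). PALB2, which links BRCA1 to BRCA2, had 0.12 (SE 0.07), and XRCC3, another recombination gene, had 6.13 and 6.31 in vehicle, 6.18 and 6.28 under Comp.2, and 6.32 and 6.38 under Comp.4 (Comp.4 difference 0.13, SE 0.09). RAD51B had 0.001 (SE 0.11). Of the 7 measured, 3 were below vehicle and 4 above, under each compound.

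The end joining genes differed among themselves. LIG4 had 6.48 and 6.45 under Comp.4, above both vehicle arrays (0.22, SE 0.08, adjusted p = 0.271), while PRKDC, given above, had the lowest difference of the 36. XRCC5, the KU80 gene and the brightest member, had 11.21 and 11.25 in vehicle, 11.28 and 11.25 under Comp.2, and 11.24 and 11.21 under Comp.4. XRCC6, the KU70 gene, had differences of -0.01 and -0.05 under the 2 compounds, and XRCC4, the scaffold of ligase IV, -0.04 and -0.01.

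The remaining genes differed from vehicle by less than 0.25 in log2 under Comp.4. RAD50 and NBN, of the complex that holds break ends, had -0.11 (SE 0.07) and -0.002 (SE 0.08) under Comp.4, and the RecQ helicase genes BLM and WRN had -0.13 and -0.11. FANCI, the FANCD2 partner, had -0.17 (SE 0.10). FANCE had 5.30 and 5.15 under Comp.4, and FANCB 6.47 and 6.55. PARP1 had 8.93 and 8.90, a difference of -0.02 (SE 0.07). Of the 7 Fanconi core and anchor genes 6 lay below vehicle, 4 of them without overlap, beside the 22.2% of all genes and 31.1% of brighter ones apart and lower. Their median was -0.09, against -0.17 under Comp.2.

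Across the 36 genes the Comp.4 median was -0.09, with 26 below 0 (72.2%). Of all genes 45.1% lay below 0, and of the brighter ones 50.6%, with a median of -0.003. Arrays were apart and lower for 20 genes (55.6%), against 22.2% of all genes and 31.1% of the brighter ones, and apart and higher for 5 (13.9%) against 27.2%. The 2 Comp.4 arrays had member medians of -0.08 and -0.07 from the vehicle mean. Both compounds are set against the same vehicle arrays, so a chance deviation of those arrays would enter both medians. With a variance trend on mean level, 5 members passed as lower under Comp.4 (PRKDC, PMS2, BRIP1, MDC1 and MSH6), which is 13.9% against 3.30% of all genes, and UIMC1 as higher (2.78% against 2.18%). Among brighter genes tested alone, PRKDC, BRIP1 and MDC1 passed as lower, which is 8.82% of 34 members against 4.46% of 11197 genes.

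**Figure D4:**
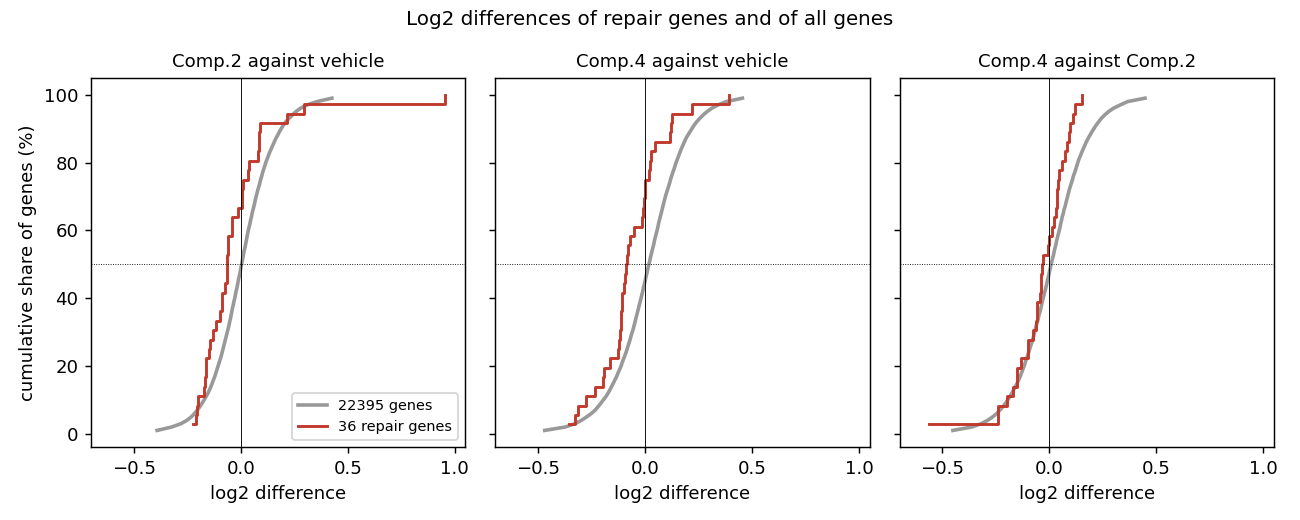
Cumulative share of the 36 repair genes (stepped red line) and of all 22395 genes (grey line, percentiles 1 to 99) by log2 difference in each comparison. Against vehicle the red line runs to the left of the grey one at its middle, with medians of -0.06 and -0.09, and the single far-right step under Comp.2 is UIMC1.

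Motifs known from cell cycle promoters were looked for in the 250 bases before each gene's start in the RefSeq promoter table (GRCh38.p14). Of the 36 measured genes 31 matched that table. The letters CCAAT, bound by NF-Y, stood on either strand in 14 of 31 (45.2%), against 33% of all 27305 promoters and 34.5% of 15842 protein-coding ones. The CHR element TTTGAA stood in 3 (9.68%), against 13.6% of all and 10.8% of protein-coding promoters. The E2F letters TTTGGCGC or TTTCGCGC stood in 2 (6.45%, FANCC and MSH3), against 0.996% and 1.4%, a share that rests on those 2 genes. Both strands were searched, and no matches overlapped in the stretches shown. A match is a description of letters and not of binding.

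Of the 6 genes lower under Comp.4 at an unadjusted p under 0.05, PRKDC has no stretch shown. Not every measured gene matched the promoter table, and whether PRKDC did was not established. Whether its promoter holds or lacks these motifs was therefore not tested. The stretches that hold the letters in the other 5 are given for comparison, 5′ to 3′ on the gene's strand. CCAAT or TTTGAA letters are in capitals (ATTGG and TTCAAA are the same motifs on the opposite strand). The genes were taken by that p, and each stretch was cut around the letters searched. CCAAT stands in 3 places in BRIP1, in 2 in PMS2 and MDC1 and in 1 in CHEK1 and MSH6, and BRIP1 and MDC1 also hold TTTGAA. The stretches are chr11:125626112-125626140 (+) for CHEK1, chr2:47783086-47783114 (+) for MSH6, chr7:6009165-6009238 (-) for PMS2, chr6:30717319-30717512 (-) for MDC1 and chr17:61863540-61863778 (-) for BRIP1.
CHEK1: ctagcgcaggggATTGGagagactcctgc
MSH6: aggcgcctgttgATTGGccactggggccc
PMS2: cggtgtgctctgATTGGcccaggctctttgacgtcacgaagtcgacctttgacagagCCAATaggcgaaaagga
MDC1: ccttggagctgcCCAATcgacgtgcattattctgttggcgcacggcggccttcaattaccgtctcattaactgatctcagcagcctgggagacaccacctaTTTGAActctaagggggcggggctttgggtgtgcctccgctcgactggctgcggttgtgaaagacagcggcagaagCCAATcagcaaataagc
BRIP1: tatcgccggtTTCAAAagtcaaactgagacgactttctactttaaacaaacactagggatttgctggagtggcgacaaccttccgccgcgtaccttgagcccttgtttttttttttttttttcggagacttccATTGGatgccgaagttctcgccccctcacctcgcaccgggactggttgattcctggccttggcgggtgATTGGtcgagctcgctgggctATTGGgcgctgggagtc

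A direct comparison of Comp.4 with Comp.2, given at equal dose and time, covered the same 36 genes. No member was called, against 0.192% of all genes called higher and 0.179% lower under Comp.4. Limma had 0 members higher and 3 lower (8.33%: UIMC1, BRIP1 and PMS2) with an unadjusted p under 0.05. All genes had 7.52% and 7.45%, and the brighter ones 9.38% and 10.8%. UIMC1, on its brightest probe set, was -0.56 (SE 0.11, 95% interval -0.82 to -0.30, adjusted p = 0.101), and on the other 0.08 (-0.11 to 0.28). BRIP1 differed by -0.24 (SE 0.07, 95% interval -0.42 to -0.07, adjusted p = 0.224), with both Comp.4 arrays below both Comp.2 arrays. PMS2 differed by -0.24 (SE 0.10, -0.47 to -0.004, adjusted p = 0.326).

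For other members the intervals reflect the spread between arrays. That spread may be technical only, so they do not bound how far the compounds could differ. CHEK1 had -0.03 (95% interval -0.20 to 0.14), ATR 0.01 (-0.15 to 0.18), BRCA1 -0.004 (-0.21 to 0.20) and PARP1 0.07 (-0.10 to 0.25). PRKDC had -0.15 (-0.31 to 0.01) and RAD51C -0.20 (-0.41 to 0.02), and for both the arrays of the compounds were apart. The highest differences were FANCE at 0.15 (-0.15 to 0.45), XRCC3 at 0.12 (-0.09 to 0.33) and FANCB at 0.11 (-0.09 to 0.31). Of 7 Fanconi core and anchor genes 6 were higher under Comp.4 than under Comp.2. The median over 36 genes was -0.03, against 0.008 for all genes and -0.003 for the brighter ones. Arrays were apart and lower for 10 members (27.8%), against 21.6% of all genes and 28.3% of the brighter ones. They were apart and higher for 3 (8.33%), against 23.7% and 26.6%.

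**Figure D5:**
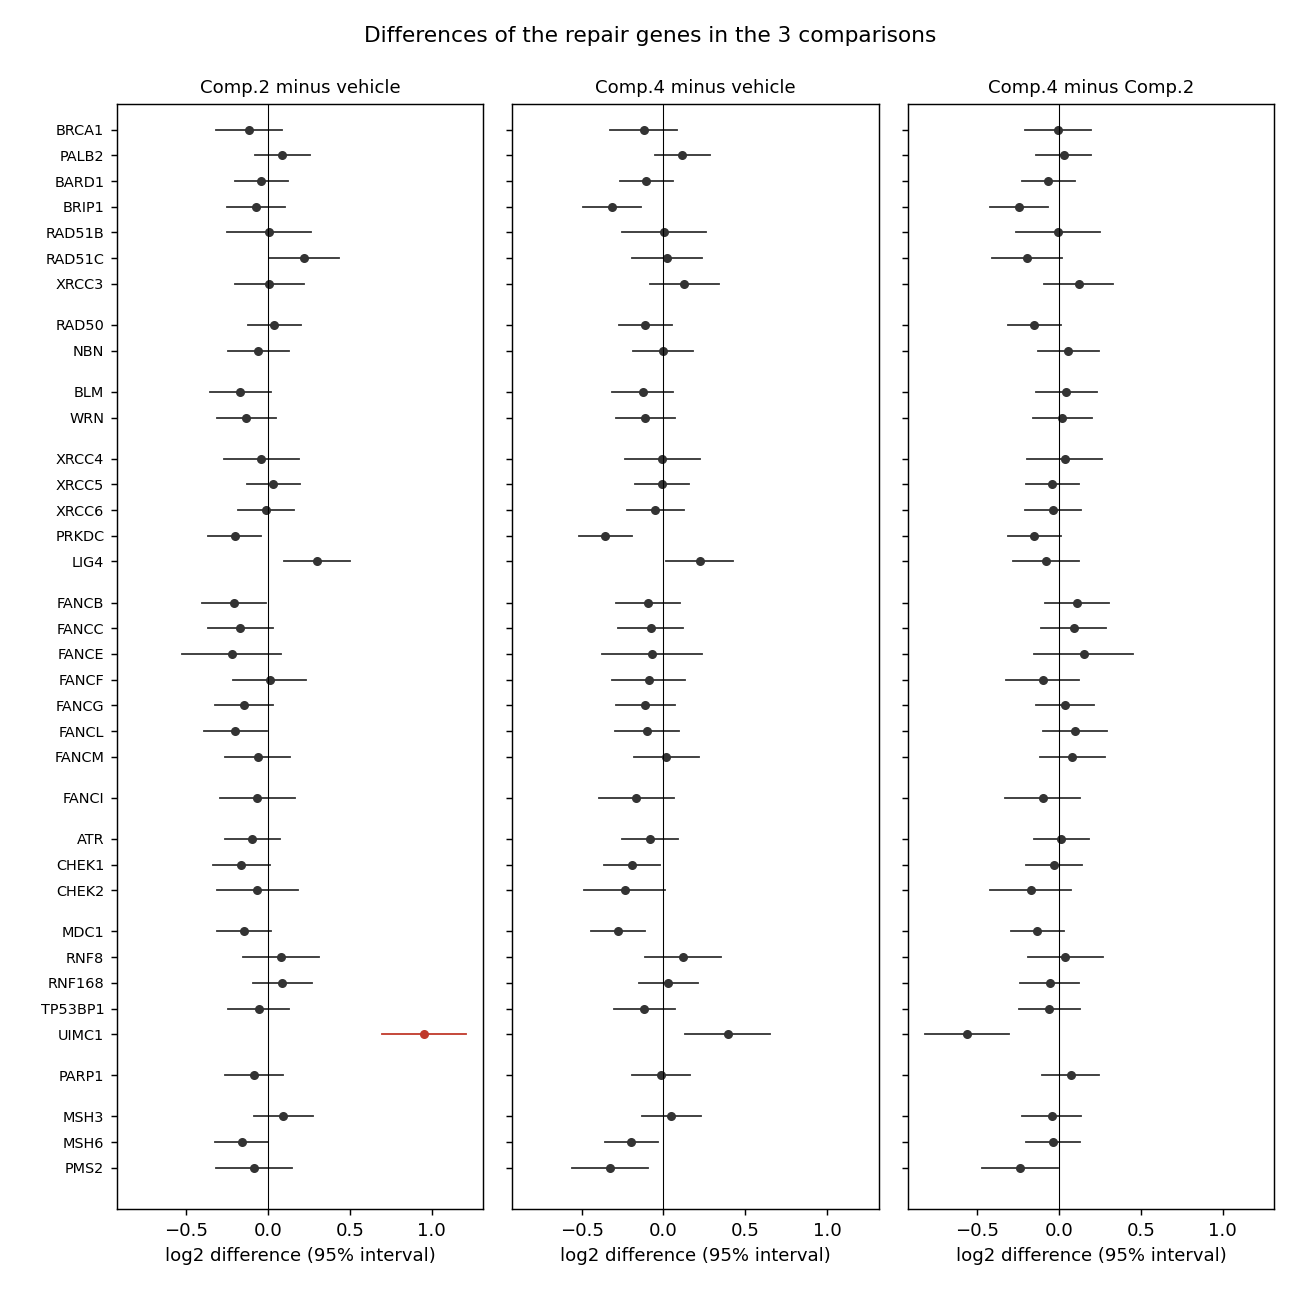
Log2 difference of each repair gene in the 3 comparisons (points) with its 95% interval from the moderated variance (lines), in the same order of roles as the plot by array. The 1 red gene, UIMC1 under Comp.2 at 0.95, passed an adjusted p of 0.05; intervals of most other genes cross 0.

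Other genes of the same pathways were taken from a separate list of 78, of which 68 were measured. Limma called none in any comparison. At an unadjusted p under 0.05 there were 0 higher and 7 lower (10.3%) under Comp.2, against 6.23% and 4.94% of all genes. Under Comp.4 there were 4 (5.88%) and 12 (17.6%), against 8.64% and 7.88%. For Comp.4 against Comp.2 there were 9 (13.2%) and 4 (5.88%), against 7.52% and 7.45%. Medians were -0.06, -0.07 and 0.02. The lowest under Comp.2 was RPA2, a subunit of the single-strand binding complex, at -0.36 (SE 0.10, adjusted p = 0.309), and the highest DNTT, a lymphoid end-joining polymerase, at 0.17 (SE 0.14), whose vehicle level was 3.65. Under Comp.4 the nuclease gene DNA2 was lowest at -0.30 (SE 0.07, adjusted p = 0.126), and SHLD1, of the shieldin complex that limits resection, highest at 0.25 (SE 0.08, adjusted p = 0.2). Between the compounds, UBE2T, the ubiquitin-conjugating partner of FANCL, was 0.40 higher under Comp.4 (SE 0.08, adjusted p = 0.125), at 9.96 against 9.56. ZRANB3, which remodels stalled forks, was lowest at -0.25 (SE 0.08, adjusted p = 0.224).

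Beside these values, 28 proliferation genes had medians of -0.07 under Comp.2 and -0.04 under Comp.4, and none passed in any comparison. At an unadjusted p under 0.05, 8 (28.6%) were lower under Comp.2 and 4 (14.3%) under Comp.4, against 4.94% and 7.88% of all genes. None was higher against vehicle, where all genes had 6.23% and 8.64%. Between the compounds 3 (10.7%) were higher and 3 (10.7%) lower, against 7.52% and 7.45%. MKI67, the proliferation antigen gene, stood at 11.12 ± 0.05 in vehicle, 10.98 ± 0.02 under Comp.2 and 10.79 ± 0.02 under Comp.4 (SD, n = 2), while PCNA, the replication clamp gene, stood at 11.28, 11.30 and 11.29. Of 22 measured p53 targets limma called 10 higher under Comp.2 and 0 under Comp.4, against 0.134% and 0.0536% of all genes. At an unadjusted p under 0.05, 20 (90.9%) and 9 (40.9%) were higher, against 6.23% and 8.64% of all genes. The p53 target medians were 0.74 and 0.18. What part the cycling state or the p53 response has in the repair gene values was not tested.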

How the data were processed

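RNA from 6 A549 samples was measured on Affymetrix whole-transcript arrays. The deposited log2 values, for 53617 probe sets on each array, were made by the authors with RMA, per the submitters' processing notes. Transcriptome Analysis Console 2.0 and Expression Console 1.3.1 are listed there too. RMA makes array scales equal and compresses dim probe sets. The number of arrays limits the precision.

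Gene names came from the platform annotation, updated through RefSeq. Probe sets with several symbols (1842) or none here (27904) were left out, and the probe set with the highest mean stood for a gene, which gave 22395 genes. Limma 3.58.1 in R 4.3.3 fitted a mean per group to all 6 arrays (3 residual and 3.71 prior degrees of freedom), with two-sided p-values adjusted by Benjamini-Hochberg, and was tested on simulated data. Intervals are 95%. A permutation of 2 arrays against 2 cannot pass 0.05, so none was run. Values in every array are given for members called, the 3 highest and lowest differences in each comparison, CHEK1, BRCA1, ATR, PARP1 and members with several probe sets (further MDC1 probe sets by range); other examples, and the motif stretches, were picked after their values were seen. Members and lists were chosen with earlier results of these data known. Alternatives were a variance trend, filters, other probe set rules, median centring, fewer groups, a replicate block and leaving out arrays.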

Additional observations from a re-analysis of the deposited data

How the results depend on the processing

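UIMC1 was the 1 member called higher under Comp.2, and it passed with a variance trend, among brighter or protein-coding genes, with centred arrays, with every probe set tested and with the replicate block (adjusted p = 0.0489). The count was 0 with the mean of probe sets, with only the 2 groups compared (adjusted p = 0.0508), and, chosen after seeing the data, with the second UIMC1 probe set, whose value was -0.18. Without any 1 array it was 0 (0 to 0 over the 6 fits). The number of members lower went from 0 to 1 under Comp.2 (PRKDC; 2.78% against 0.723% of all genes), to 5 under Comp.4 (13.9% against 3.30%) and to 3 for Comp.4 against Comp.2 (UIMC1, BRIP1 and RAD50; 8.33% against 2.64%) with a variance trend, where the number higher under Comp.4 was 1 (2.78% against 2.18%). Among brighter genes alone it was 3 under Comp.4 (8.82% against 4.46%) and 1 between the compounds (UIMC1; 2.94% against 3.50%). The variance trend and the brighter genes changed the spread assumed or the number of genes tested, and the cause of the difference was not tested further. Member medians without any 1 array ran from -0.07 to -0.05 under Comp.2, from -0.09 to -0.07 under Comp.4 and from -0.04 to -0.01 between them, and under each other setting they moved by at most 0.03, the spread between replicates. Replicate numbers share no stated source, and the differences between arrays 1 and 2 correlated across genes at -0.04 to 0.03 between groups; as a paired fit the replicate block changed no member's call.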
